A study of Mus musculus with 4 samples.

Results

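Mouse genes named Zfp followed by a number encode zinc finger proteins, and 138 of them were expressed in MLg cells, an established line of mouse lung fibroblasts. They were selected on their level, as every symbol of this form other than Zfp36 with a mean of 1 RPKM or more over the 4 libraries (RPKM is reads per kilobase of transcript, scaled to the library's count total). The table of 12767 symbols held 335 such Zfp symbols at any level, and 9467 symbols of all kinds reached the same mean. Because the level in these libraries chose the genes, their presence above 1 RPKM is no finding. Zfp280c and Zfp956 lay just inside this level with means of 1.00 and 1.01 RPKM, and Zfp764 and Zfp979 just outside it, with 0.988 and 0.987 RPKM.

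All cells were wild-type MLg cells transfected with an antagomiR, a synthetic strand complementary to a mature microRNA that keeps it from its targets, and there was 1 library per group. TGFB1 + miR-9-LOF cells received the oligonucleotide against miR-9-5p (a loss-of-function, LOF) and human recombinant TGFB1 (transforming growth factor beta 1), which stimulates fibroblasts to make matrix. TGFB1 cells received a negative control oligonucleotide and the cytokine, miR-9-LOF cells the miR-9-5p oligonucleotide alone, and Ctr cells the negative control alone. The protocol gives 60 nM of oligonucleotide, harvest at 24 h and 5 ng/ml TGFB1 added at 20 h for 4 h, whereas the design text gives 10 nM and harvest at 48 h, and these statements were not reconciled here.

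With 1 library per group the comparisons are descriptions without a test, and no model with a term for each treatment was fitted to the 4 libraries. "Rose" and "fell" are used below only for a change of 0.58 or more on the log2 scale of RPKM + 1, the limit in the study's methods. Adding 1 shrinks the changes of low genes, and most Zfp genes are low, so plain RPKM ratios are given as well, each with an exact 95% binomial interval in brackets. These intervals cover counting error only and leave out the spread between cultures, and since no molecular identifiers are mentioned in the methods, several reads may come from 1 molecule.

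In a C2H2 zinc finger, a pair of cysteines and a pair of histidines hold a zinc ion so that a short helix can read DNA bases, and arrays of such fingers give a protein its DNA target. In mammalian genomes the largest subgroup also carries a KRAB box, which binds the co-repressor TRIM28 (KAP1) and through it the histone methyltransferase SETDB1 and HP1 proteins. KRAB proteins are known for silencing retroelements and for keeping imprints, and their genes multiplied by tandem duplication, so many sit side by side on a chromosome. Some Zfp genes encode proteins of other kinds, which act at the spindle, on ribosomes or on RNA.

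miR-9-5p is shown because blocking it is the treatment, and its seed (bases 2 to 8, in capitals) defines the matches searched in the Zfp transcripts. The sequence comes from RefSeq on GRCm38.p6, where Mir9-1 places it at chr3:88215613-88215635, and Mir9-2 and Mir9-3 on chromosomes 13 and 7 encode the same mature sequence.
miR-9-5p: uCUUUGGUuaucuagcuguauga
The letters ACCAAAG, the reverse complement of the seed, were found in the 3′ UTR of 22 of 137 Zfp genes with a GENCODE M21 transcript (16.1%), against 11.8% of 9012 genes at 1 RPKM or more. The median 3′ UTR was 1187 nt in Zfp genes and 898 nt over all genes. Sites of 5 of them follow, each with 8 bases of context on either side and the match in capitals. They come from genes that the account below returns to, most of them picked there for their changes. Other genes with sites named below are not printed.
Zfp365 (chromosome 10): aacaaatcACCAAAGtttctggg
Zfp593 (chromosome 4): accccccaACCAAAGatggagtt
Zfp385c (chromosome 11): ttcatgtcACCAAAGccagtgcc
Zfp395 (chromosome 14): aaccggagACCAAAGagttaccc
Zfp106 (chromosome 2): ccctgttcACCAAAGggaatatg
Zfp319 held the most matches, with 3, and 6 of the 22 genes held a match followed by A. A match of letters is a description and not a shown binding site.

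The libraries summed to 19017357 counts in TGFB1 + miR-9-LOF, 21805102 in TGFB1, 14718397 in miR-9-LOF and 27413486 in Ctr. Rn45s (the ribosomal RNA precursor), Mir6236 and Lars2 together took 28.9%, 16.4%, 34.1% and 19.2% of counts in the same order, and every RPKM is divided by a total that includes them. Their part in the Zfp values was not tested, but totals without them are given where they change a count. Of the fibroblast markers, 10 of 12 reached 1 RPKM, with summed levels between 1801 and 3390 RPKM. Only 2 of 6 epithelial and 1 of 5 endothelial markers were among the symbols, and none of these reached 1 RPKM (summed levels of 0.49 RPKM or less). Of 5 leukocyte markers only 1 was among them, Cd68, which reached 1 RPKM (1.74 to 2.63 RPKM). Markers absent from the symbols were not measured here. The Zfp genes were covered by a median of 152.5 reads in TGFB1 + miR-9-LOF, 194.5 in TGFB1, 114 in miR-9-LOF and 242 in Ctr.

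Zfp genes were expressed at lower levels than the median of all genes in every library. The median Zfp gene had 2.31 RPKM in TGFB1 + miR-9-LOF, 2.33 RPKM in TGFB1, 1.91 RPKM in miR-9-LOF and 2.35 RPKM in Ctr, against 4.80, 5.11, 4.41 and 5.12 RPKM for the median of all 9467 genes. Their summed level was 414 RPKM in TGFB1 + miR-9-LOF, 438 RPKM in TGFB1, 397 RPKM in miR-9-LOF and 430 RPKM in Ctr. Of the 138 genes, 57 averaged below 2 RPKM, 48 between 2 and 4 RPKM and 33 above 4 RPKM. The plot of levels by rank shows how few Zfp genes exceed 10 RPKM.

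**Figure D1:**
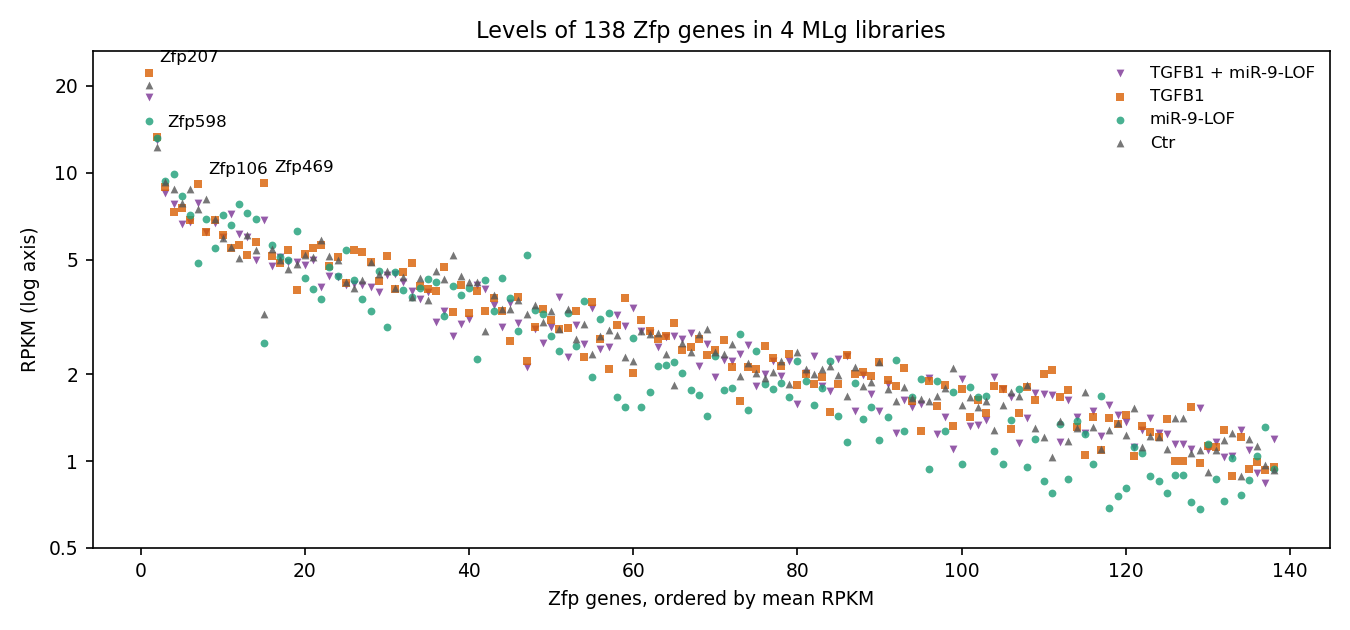
RPKM (log axis) of each of 138 Zfp genes, ordered by mean RPKM, with 1 symbol per library. Zfp207 stands highest in all 4 libraries (15.1 to 22.3 RPKM), and the TGFB1 value of Zfp469 (9.22 RPKM) stands far above its Ctr value (3.23 RPKM).

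Of the 6 highest Zfp genes 5 had no KRAB box matched. Zfp207, whose product binds microtubules and the checkpoint protein BUB3 at the spindle, had 18.3 RPKM in TGFB1 + miR-9-LOF, 22.3 in TGFB1, 15.1 in miR-9-LOF and 20.1 in Ctr. Zfp598, a ubiquitin ligase that acts on collided ribosomes, had 13.0, 13.3, 13.2 and 12.2 RPKM in the same order. Zfp622, known from human cells as a maturation factor of the large ribosomal subunit, had 8.52, 8.91, 9.36 and 9.29 RPKM. Zfp777, a KRAB gene and the exception among the 6 highest, had 7.81 RPKM in TGFB1 + miR-9-LOF, 7.33 in TGFB1, 9.90 in miR-9-LOF and 8.76 in Ctr. Zfp384, which binds collagen and metalloproteinase promoters, ranged from 6.64 to 8.29 RPKM, and Zfp740 from 6.74 to 8.81 RPKM. None of these 6 genes rose or fell in any comparison.

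Which library held the lowest value of a Zfp gene was uneven. The miR-9-LOF library held the lowest value of 72 genes, TGFB1 + miR-9-LOF of 35, TGFB1 of 19 and Ctr of 12. As shares of the Zfp genes these are 52.2%, 25.4%, 13.8% and 8.70%, close to the shares over all genes of 48.5%, 26.3%, 16.2% and 8.98%. The highest value was that of TGFB1 + miR-9-LOF in 25 Zfp genes, of TGFB1 in 44, of miR-9-LOF in 34 and of Ctr in 35. These are 18.1%, 31.9%, 24.6% and 25.4% of Zfp genes, against 14.2%, 34.1%, 19.2% and 32.6% of all genes.

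The first question was what blocking miR-9 did to Zfp genes in unstimulated cells (miR-9-LOF over Ctr). Zfp281, Zfp330 and Zfp644 fell and no Zfp gene rose. That is 2.17% of Zfp genes lower and none higher, against 6.69% lower and 1.99% higher over all genes, and 6.25% lower and 1.62% higher over genes of 1 to 20 RPKM, the range of the Zfp genes. The median log2 change was -0.15 in Zfp genes (quartiles -0.29 and 0.05) and -0.17 over all genes (quartiles -0.35 and 0.02). The scaling moved the Zfp median together with that of all genes: with library totals lacking Rn45s, Mir6236 and Lars2 the medians were 0.04 in Zfp genes and 0.06 over all genes, and with TMM factors -0.03 and -0.04. With changes centred on the all-gene median no Zfp gene fell and 3 (2.17%) rose, against 1.82% and 3.98% of all genes. With TMM factors again none fell and 3 rose, against 2.25% and 3.54% of all genes. With the reduced library totals, which lift the number of Zfp genes at 1 RPKM or more to 160, none fell and 7 (4.38%) rose, against 1.44% and 5.87% of all genes. By plain RPKM ratios 21 Zfp genes (15.2%) were lower and 4 (2.90%) higher by 0.58 log2, against 16.0% and 3.11% of all genes.

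Zfp281 binds GC-rich promoters and is known for its part in leaving pluripotency. It had 1.43 RPKM in miR-9-LOF against 2.88 RPKM in Ctr (111 and 416 reads, ratio 0.497 [0.399 to 0.614]). Zfp330 encodes a cysteine-rich nucleolar protein, in which no C2H2 finger was matched. It had 2.26 RPKM in miR-9-LOF against 4.18 RPKM in Ctr (52 and 179 reads, ratio 0.541 [0.389 to 0.741]). Zfp644, a partner of the histone H3 lysine 9 methyltransferases G9a and GLP, had 1.53 RPKM in miR-9-LOF against 2.84 RPKM in Ctr (ratio 0.541 [0.441 to 0.661]). In mm10 they lie on chromosome 1 from 136624901 to 136630391, on chromosome 8 from 82763618 to 82774145 and on chromosome 5 from 106616739 to 106696834. None of the 3 had the seed match in its 3′ UTR, while Zfp644 held 1 match in its coding sequence. With the scaling that leaves out Rn45s, Mir6236 and Lars2 their log2 changes were -0.52, -0.48 and -0.44, short of the limit. Counted on its longest transcript, Zfp644 changed by -0.573 log2, also short of the limit.

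Zfp664, Zfp521, Zfp318 and Zfp106 came close to the limit without passing it. Zfp664 had 3.64 RPKM in miR-9-LOF against 5.84 RPKM in Ctr, a log2 change of -0.56 (ratio 0.623 [0.532 to 0.727]). Zfp521, a regulator of blood and mesenchymal progenitors, had 1.18 RPKM in miR-9-LOF against 2.21 RPKM in Ctr (log2 -0.56, ratio 0.536 [0.428 to 0.666]). Zfp318, whose product acts on IgD splicing in B cells, had 0.96 RPKM against 1.84 RPKM (log2 -0.54). Zfp106, an RNA-binding protein needed by motor neurons, had 4.86 RPKM in miR-9-LOF against 7.48 RPKM in Ctr (652 and 1868 reads, log2 -0.53, ratio 0.650 [0.594 to 0.711]). Their transcripts are longer than that of the median Zfp gene, between 3909 nt in Zfp318 and 9113 nt in Zfp106.

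At the other end stood Zfp672, Zfp428, Zfp593 and Zfp385c, all short of the limit, although Zfp672, Zfp428 and Zfp593 passed it with changes centred on the all-gene median. Zfp672, counted on a transcript of 473 nt, had 36 reads in miR-9-LOF and 42 in Ctr, or 5.17 against 3.24 RPKM (log2 0.54), and its ratio of 1.60 has an interval that reaches below 1 [0.994 to 2.55]. Zfp428 had 7.77 RPKM in miR-9-LOF against 5.06 RPKM in Ctr (log2 0.53, ratio 1.53 [1.19 to 1.97]). Zfp593, known for work in ribosome assembly through its yeast relative Bud20, had 4.24 RPKM in miR-9-LOF against 2.83 RPKM in Ctr (log2 0.45, ratio 1.50 [1.17 to 1.91]). Zfp385c had 1.68 RPKM in miR-9-LOF against 1.10 RPKM in Ctr (log2 0.35). The exons of Zfp428, Zfp593 and Zfp385c overlap exons of other coding genes (AC161166.1, E130218I03Rik and Nkiras2), and counting took both strands, so their reads cannot be assigned to a single gene.

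The second question was what blocking miR-9 did under TGFB1 (TGFB1 + miR-9-LOF over TGFB1). No Zfp gene rose or fell. Over all genes 1.48% fell and 2.06% rose, and over genes of 1 to 20 RPKM 1.06% and 1.71%. The median log2 change was -0.05 in Zfp genes (quartiles -0.17 and 0.07) and -0.08 over all genes, and with library totals lacking Rn45s, Mir6236 and Lars2 both medians were 0.11. By plain RPKM ratios no Zfp gene was lower and 2 (1.45%) were higher by 0.58 log2, against 3.32% and 2.99% of all genes.

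The genes nearest to the limit here were not those that fell without TGFB1. Zfp365, a gene known from neurons and from replication stress, had 3.40 RPKM in TGFB1 + miR-9-LOF against 2.02 RPKM in TGFB1 (275 and 187 reads, log2 0.54, ratio 1.69 [1.40 to 2.04]). Its 3′ UTR holds the seed match printed above. Its values without TGFB1 were 2.67 RPKM in miR-9-LOF and 2.23 RPKM in Ctr (log2 0.18). Zfp213, which carries a KRAB and a SCAN box, had 2.35 RPKM in TGFB1 + miR-9-LOF against 1.62 RPKM in TGFB1 (log2 0.35) and 2.75 RPKM in miR-9-LOF against 1.97 RPKM in Ctr (log2 0.34). Zfp637 had 7.17 RPKM in TGFB1 + miR-9-LOF against 5.49 RPKM in TGFB1 (log2 0.33, ratio 1.31 [1.04 to 1.65]). In the other direction, Zfp251 (log2 -0.41), Zfp664 (-0.40), Zfp469 (-0.38) and Zfp521 (-0.36) were the lowest. Zfp664 had 4.02 RPKM in TGFB1 + miR-9-LOF against 5.60 RPKM in TGFB1, so it was lower with the miR-9-5p oligonucleotide in either setting.

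The 2 comparisons of miR-9-LOF share no library, so they can be set beside each other. Of the 138 Zfp genes, 71 (51.4%) lay on the same side of the all-gene median in both, against 61.0% of all genes, and Spearman's rho was 0.13 over the Zfp genes and 0.36 over all 9467 genes. Genes are not independent replicates, and low counts weaken such a correlation, so these are descriptions. No Zfp gene passed the limit in the same direction in both comparisons. Of all 9467 genes 81 fell and 115 rose in both, so that few such calls were to be had among 138 genes. For Zfp281 the log2 change was 0.09 under TGFB1, with 2.56 RPKM in TGFB1 + miR-9-LOF against 2.33 RPKM in TGFB1. For Zfp330 it was 0.06, with 4.07 RPKM against 3.88 RPKM, and for Zfp644 -0.09, with 2.83 RPKM against 3.09 RPKM. The change under TGFB1 minus the change without it was 0.77 for Zfp281 and 0.72 for Zfp330, the most positive of all Zfp genes, and -0.63 for Zfp41, the most negative. It passed 0.58 in either direction in 5 Zfp genes, and in 5.79% of all genes. This difference was not tested. The left panel of the plot of comparison pairs shows the 3 genes at its left edge, near the zero line of the vertical axis.

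**Figure D2:**
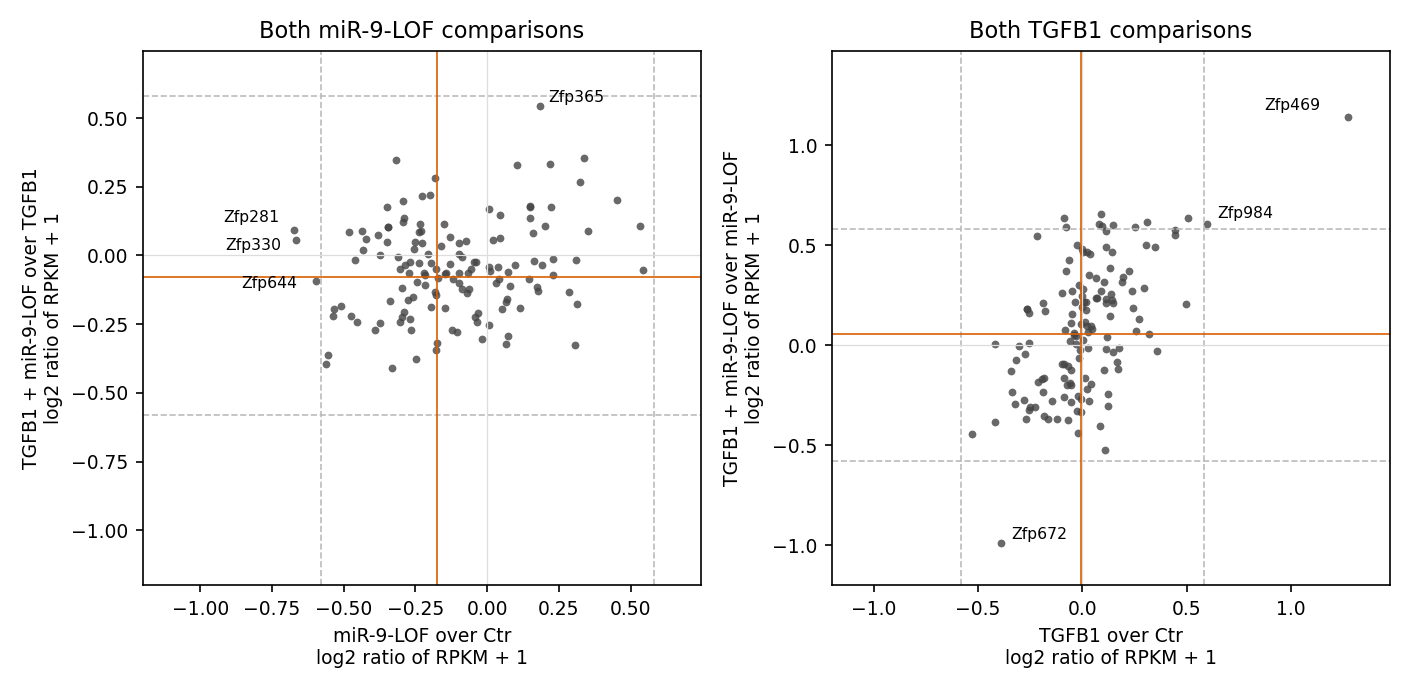
Log2 ratio of RPKM + 1 of each of 138 Zfp genes in both miR-9-LOF comparisons (left) and both TGFB1 comparisons (right), with the limit of 0.58 dashed and the medians of all genes in orange. Each axis pair shares no library. Zfp469 (1.27 and 1.14) and Zfp984 (0.60 and 0.61) are the genes in the upper right corner of the right panel.

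The third question was what TGFB1 did with the control oligonucleotide (TGFB1 over Ctr). Zfp469 and Zfp984 rose and no Zfp gene fell. That is 1.45% of Zfp genes higher and none lower, against 2.64% higher and 2.95% lower over all genes, and 2.39% and 2.76% over genes of 1 to 20 RPKM. The median log2 change was 0.00 in Zfp genes and -0.01 over all genes, with quartiles of -0.09 and 0.11 in Zfp genes and -0.16 and 0.14 over all genes. By plain RPKM ratios 7 Zfp genes (5.07%) were higher and 3 (2.17%) lower by 0.58 log2, against 4.40% and 5.15% of all genes.

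Zfp469 is the mouse counterpart of human ZNF469, which is mutated in brittle cornea syndrome and linked to collagen fibril assembly. It had 6.87 RPKM in TGFB1 + miR-9-LOF, 9.22 RPKM in TGFB1, 2.56 RPKM in miR-9-LOF and 3.23 RPKM in Ctr, from 1686, 2597, 487 and 1145 reads. Both libraries with TGFB1 were thus above both libraries without it. The ratio was 2.85 [2.66 to 3.06] for TGFB1 over Ctr (log2 1.27) and 2.68 [2.42 to 2.97] for TGFB1 + miR-9-LOF over miR-9-LOF (log2 1.14). With the miR-9-5p oligonucleotide it was lower in either setting, by a ratio of 0.744 [0.700 to 0.792] for TGFB1 + miR-9-LOF over TGFB1 and 0.792 [0.711 to 0.882] for miR-9-LOF over Ctr, which are short of the limit. It lies on chromosome 8 from 122043123 to 122272650, and its transcript of 12910 nt is the longest among the Zfp genes named here.

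Zfp984, a KRAB gene with 11 matched fingers on chromosome 4 from 147753974 to 147812229, rose to 2.07 RPKM in TGFB1, against 1.03 RPKM in Ctr (123 and 77 reads, ratio 2.01 [1.50 to 2.71]). It had 1.70 RPKM in TGFB1 + miR-9-LOF against 0.77 RPKM in miR-9-LOF (88 and 31 reads, ratio 2.20 [1.44 to 3.42]). Its log2 changes of 0.60 and 0.61 lie just past the limit, and reads of near-identical KRAB genes may be shared with it. Below the limit, Zfp451, a SUMO ligase, had 3.68 RPKM in TGFB1 against 2.29 RPKM in Ctr (log2 0.51, ratio 1.61 [1.27 to 2.04]), and Zfp703, a transcriptional co-repressor, had 3.01 RPKM against 1.84 RPKM (log2 0.50, ratio 1.63 [1.32 to 2.02]). Zfp703 had 2.71 RPKM in TGFB1 + miR-9-LOF against 2.21 RPKM in miR-9-LOF, a log2 difference of 0.21.

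Zfp395, Zfp467 and Zfp263 stood lowest after TGFB1 without reaching the limit. Zfp395, whose human counterpart binds the huntingtin gene promoter, had 3.28 RPKM in TGFB1 against 5.19 RPKM in Ctr (302 and 600 reads, log2 -0.53, ratio 0.633 [0.549 to 0.728]). It had 2.72 RPKM in TGFB1 + miR-9-LOF against 4.06 RPKM in miR-9-LOF (log2 -0.44, ratio 0.670 [0.556 to 0.806]), so both libraries with TGFB1 were below both without it. Zfp467, which favours fat over bone differentiation of mesenchymal cells, had 1.32 RPKM in TGFB1 against 2.10 RPKM in Ctr (log2 -0.42) and 1.10 RPKM in TGFB1 + miR-9-LOF against 1.74 RPKM in miR-9-LOF (log2 -0.39). Zfp263, a SCAN gene, had 1.05 RPKM in TGFB1 against 1.74 RPKM in Ctr (log2 -0.42), but 1.25 RPKM in TGFB1 + miR-9-LOF against 1.24 RPKM in miR-9-LOF (log2 0.01).

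The fourth question was what TGFB1 did with the miR-9-5p oligonucleotide (TGFB1 + miR-9-LOF over miR-9-LOF). Here 11 Zfp genes rose and Zfp672 fell. That is 7.97% higher and 0.725% lower, against 7.13% higher and 2.45% lower over all genes, and 7.41% and 1.95% over genes of 1 to 20 RPKM. The median log2 change was 0.08 in Zfp genes (quartiles -0.17 and 0.29) and 0.06 over all genes. By plain RPKM ratios 31 Zfp genes (22.5%) were higher and 6 (4.35%) lower by 0.58 log2, against 15.5% and 4.55% of all genes. With the changes centred on the all-gene median 2 Zfp genes rose and 2 fell (1.45% each), against 5.06% and 3.23% of all genes. With TMM factors 7 (5.07%) rose and 1 (0.725%) fell, against 5.41% and 3.31% of all genes.

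The 11 genes that rose were Zfp469, Zfp638, Zfp330, Zfp451, Zfp292, Zfp984, Zfp52, Zfp800, Zfp644, Zfp106 and Zfp105, with log2 changes between 0.59 and 1.14. Zfp52 and Zfp800 are given because they complete this count and were picked after their values were seen. Counted on their longest transcripts, Zfp451 and Zfp644 changed by 0.51 and 0.576 log2 here, short of the limit. This comparison shares the miR-9-LOF library with the first one, so a low value there enters both. Zfp638, which silences unintegrated retroviral DNA with the HUSH complex, had 3.21 RPKM in TGFB1 + miR-9-LOF, 2.97 RPKM in TGFB1, 1.67 RPKM in miR-9-LOF and 2.73 RPKM in Ctr (ratio 1.92 [1.59 to 2.33] for TGFB1 + miR-9-LOF over miR-9-LOF). Zfp330 had 4.07, 3.88, 2.26 and 4.18 RPKM in the same order. For both genes the miR-9-LOF library alone is low and the other 3 lie close together. Zfp292, which carries 14 matched fingers, had 2.32, 2.33, 1.17 and 1.69 RPKM, so both libraries with TGFB1 were above both without it (log2 0.61, and 0.31 for TGFB1 over Ctr). Zfp451 had 2.95, 3.68, 1.54 and 2.29 RPKM, with the same split. Zfp105 had 1.53, 0.99, 0.68 and 1.10 RPKM from 58, 43, 20 and 60 reads, and its ratio of 2.24 has a wide interval [1.33 to 3.94]. Its mean of 1.07 RPKM passes the level of 1 RPKM only with the TGFB1 + miR-9-LOF value. The selection thus used the value in which Zfp105 is high, and its rise is no independent finding.

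Zfp672 had 2.11 RPKM in TGFB1 + miR-9-LOF against 5.17 RPKM in miR-9-LOF, from 19 and 36 reads (log2 -0.99, ratio 0.408 [0.221 to 0.731]). Among genes with more reads the lowest were Zfp41, with 1.25 RPKM in TGFB1 + miR-9-LOF against 2.23 RPKM in miR-9-LOF (log2 -0.52, ratio 0.560 [0.418 to 0.749]), Zfp395 (log2 -0.44) and Zfp628 (log2 -0.44). The plot of ratios sets the 12 genes past the limit here, and Zfp281, side by side in all comparisons.

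**Figure D3:**
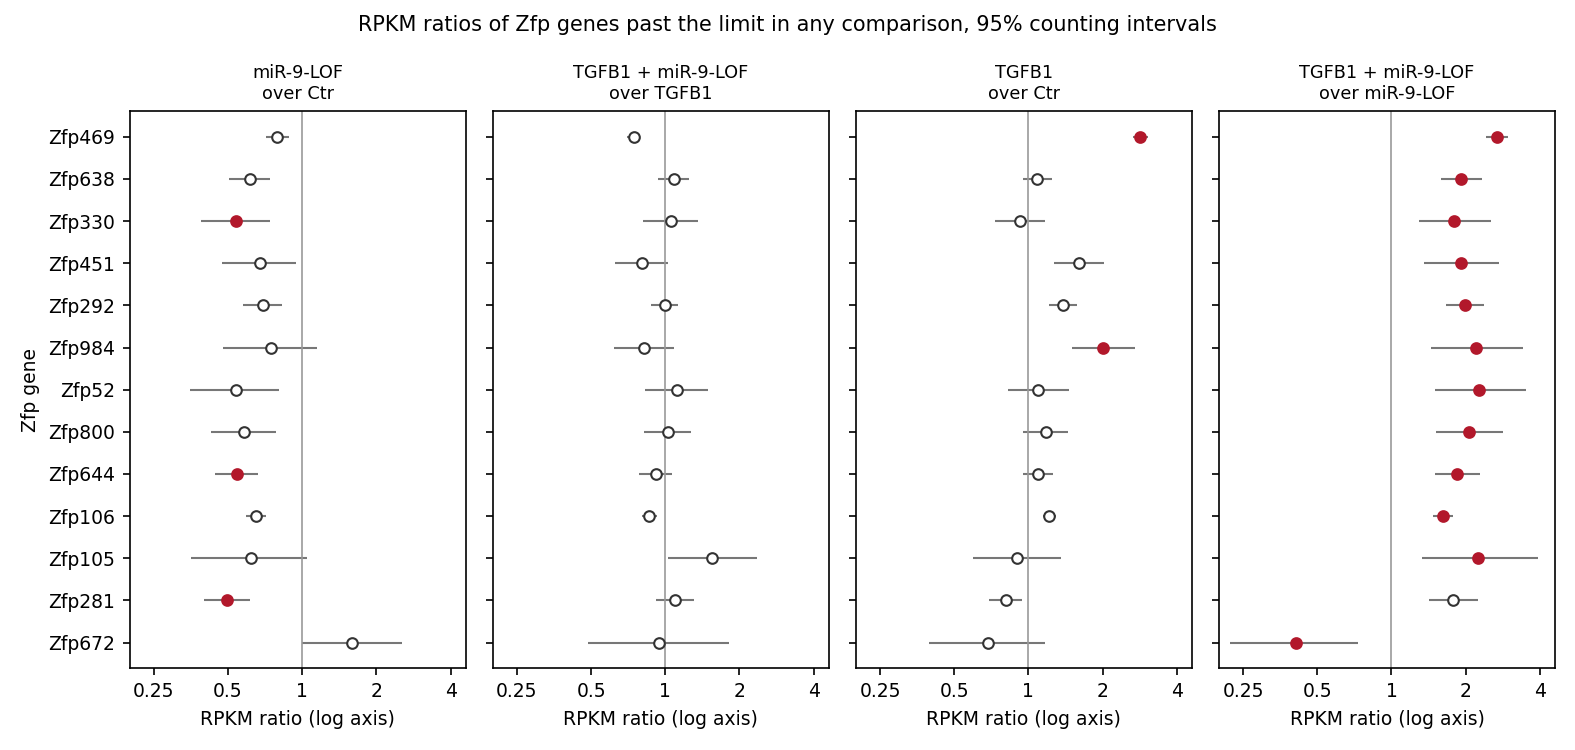
Plain RPKM ratios (log axis) of the 13 Zfp genes past the limit in any comparison, with exact 95% binomial intervals for counting error and filled points where the limit was passed. Filled points gather in the right panel, where TGFB1 + miR-9-LOF is set over miR-9-LOF, and none stands in the second panel, TGFB1 + miR-9-LOF over TGFB1.

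The 2 comparisons of TGFB1 share no library either. Here 98 of 138 Zfp genes (71.0%) lay on the same side of the all-gene median in both, against 69.5% of all genes, and Spearman's rho was 0.50 over the Zfp genes and 0.54 over all genes. Zfp469 and Zfp984 were the Zfp genes that rose in both, and none of the 138 fell in both. Of all 9467 genes at 1 RPKM or more 169 rose and 109 fell in both.

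By sequence, the Zfp genes were sorted with a search of their GENCODE proteins for the KRAB A box and the SCAN box, a module by which such proteins pair. A KRAB A box was matched in 38 genes (27.5%), of which 4 also had a SCAN box (Zfp110, Zfp213, Zfp369 and Zfp445). Zfp263 and Zfp444 had a SCAN box alone, 93 genes had C2H2 fingers with neither box, 4 had no match to the finger pattern (Zfp330, Zfp365, Zfp503 and Zfp703), and no protein was matched to Zfp469. The search can miss diverged boxes, so a gene without a match is not shown to lack one. The median Zfp protein had 583 residues and 8 fingers, 51 genes had 10 or more, and the most was 36.

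KRAB genes were lower in level, with a median of 1.55 RPKM against 2.67 RPKM in the 99 genes with no KRAB A box matched. No KRAB gene rose or fell with miR-9-LOF over Ctr or with TGFB1 + miR-9-LOF over TGFB1. Among all genes of 1 to 2 RPKM 3.14% fell and 1.19% rose in the first of these and 0.433% and 1.57% in the second, so a count of 0 among 38 genes is near the background. Their median log2 change was -0.21 for miR-9-LOF over Ctr, against -0.12 without a KRAB A box, and 0.20 for TGFB1 + miR-9-LOF over miR-9-LOF, against 0.05. Under TGFB1 the medians were -0.06 and -0.05 for TGFB1 + miR-9-LOF over TGFB1, and 0.02 and 0.00 for TGFB1 over Ctr. The ranges between quartiles overlapped in all 4 comparisons, and the class difference was not tested. Centring moves both classes equally.

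**Figure D4:**
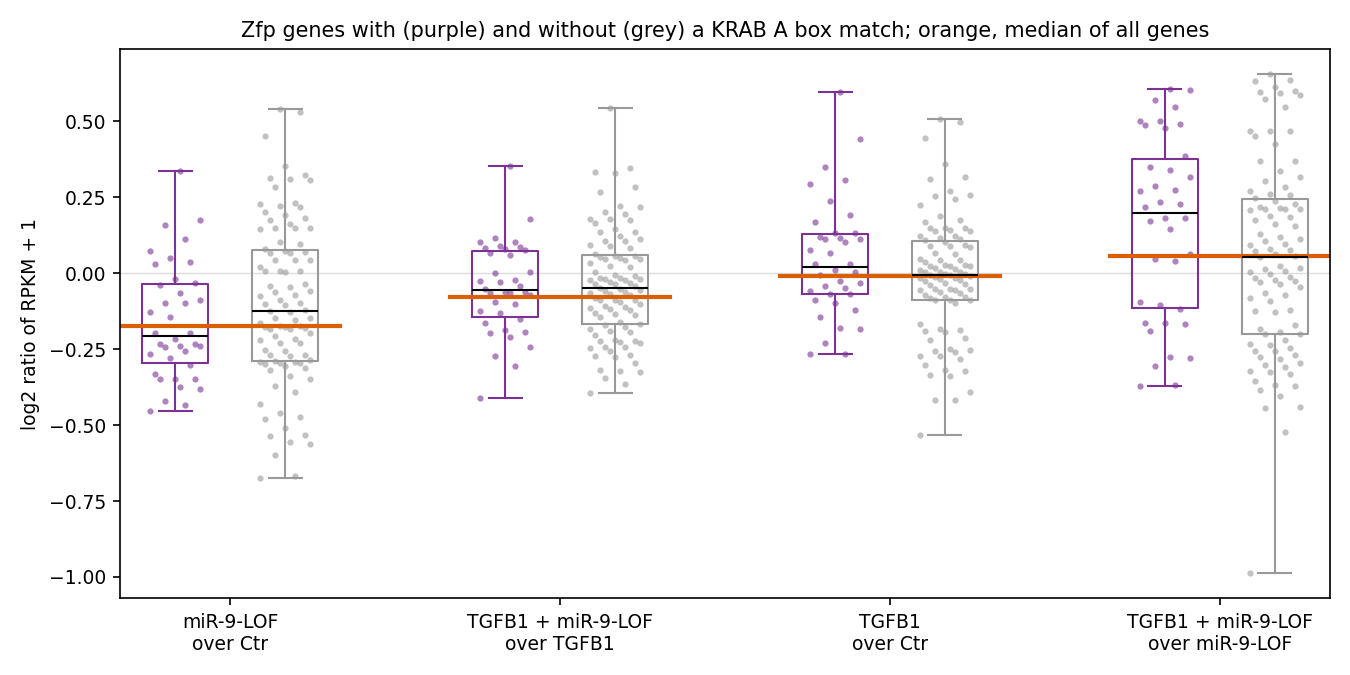
Log2 ratio of RPKM + 1 of 38 Zfp genes with a KRAB A box match (purple) and 99 without (grey) in 4 comparisons, with the median and quartiles as boxes, the full range as whiskers, and the median of all 9467 genes in orange. The purple median is lowest for miR-9-LOF over Ctr (-0.21) and highest for TGFB1 + miR-9-LOF over miR-9-LOF (0.20).

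Of the KRAB genes with a known target or partner, Zfp57, which guards imprinted regions, had 4.01 RPKM in TGFB1 + miR-9-LOF, 4.92 in TGFB1, 3.31 in miR-9-LOF and 4.90 in Ctr (log2 -0.45 for miR-9-LOF over Ctr). Zfp445, which shares that function, had 1.78, 1.77, 0.98 and 1.56 RPKM. Zfp809, a silencer of murine leukaemia virus, had 1.28, 1.32, 1.06 and 1.12 RPKM from 25 to 49 reads. Zfp568, a repressor of a placental Igf2 transcript, had 1.10, 1.54, 0.72 and 1.07 RPKM. Zfp746 (PARIS), a repressor of PGC-1α that Parkin degrades, had 3.87, 4.22, 4.56 and 4.44 RPKM. Zfp110 and Zfp369, whose products bind the p75 neurotrophin receptor, had 1.41 and 1.93 RPKM in TGFB1 + miR-9-LOF, 1.26 and 1.78 in TGFB1, 0.89 and 0.97 in miR-9-LOF and 1.22 and 1.57 in Ctr. For 6 of these 7 genes the miR-9-LOF library was the lowest, and Zfp746 is the exception. That library was also the lowest for 52.2% of Zfp genes and 48.5% of all genes. The 7 genes were listed for known roles, and their count was not tested against these shares. For Zfp809 the gap between miR-9-LOF and Ctr (1.06 against 1.12 RPKM, 25 and 49 reads) lies within counting error.

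Factors of transcription and chromatin without a KRAB box that kept within the limit in all comparisons are the following. Zfp148, the paralog of Zfp281, had 1.17 RPKM in TGFB1 + miR-9-LOF, 1.11 in TGFB1, 0.87 in miR-9-LOF and 1.09 in Ctr. Zfp143, a factor of snRNA and loop-anchoring promoters, had 1.04, 1.29, 0.73 and 1.18 RPKM. Zfp410, a known activator of Chd4, had 1.10, 1.12, 1.15 and 0.92 RPKM. Zfp91, a ubiquitin ligase of the noncanonical NF-kB pathway, had 6.69, 6.88, 5.48 and 6.89 RPKM. Zfp609 had 4.97, 5.48, 3.95 and 5.09 RPKM, and its relative Zfp608 had 1.04, 0.89, 1.02 and 1.25 RPKM. Zfp335, a subunit of a histone methyltransferase complex whose exons overlap Pcif1, had 5.11, 4.87, 5.09 and 5.00 RPKM. Zfp131, Zfp217, Zfp462, Zfp503, Zfp706 and Zfp827 ranged from 0.76 to 4.39 RPKM, with log2 changes between -0.35 and 0.47 over the 4 comparisons. Of the 38 genes listed for a known role 34 reached 1 RPKM.

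Among the partners of KRAB proteins, Trim28 had 47.6 RPKM in TGFB1 + miR-9-LOF, 51.8 in TGFB1, 56.6 in miR-9-LOF and 52.8 in Ctr, and neither rose nor fell. Setdb1 had 2.44, 3.22, 2.51 and 2.87 RPKM. A list of co-repressor and heterochromatin genes held 36 symbols, older and newer names of a gene included, and 33 of them were measured at 1 RPKM or more. Their median log2 change was -0.37 for miR-9-LOF over Ctr, against -0.17 over all genes. Atrx, Cbx1, Cbx5 and Chd3 fell in that comparison (4 of 33, against 6.69% of all genes) and none of the list rose. Chd3 also fell with TGFB1 + miR-9-LOF over TGFB1, to 14.2 RPKM against 21.9 RPKM (log2 -0.59, 1 of 33, against 1.48% of all genes). Atrx, Cbx5 and Resf1 rose with TGFB1 + miR-9-LOF over miR-9-LOF (3 of 33, against 7.13% of all genes). None of the list passed the limit with TGFB1 over Ctr. With changes centred on the all-gene median, Atrx and Cbx1 for miR-9-LOF over Ctr, Chd3 for TGFB1 + miR-9-LOF over TGFB1 and Cbx5 for TGFB1 + miR-9-LOF over miR-9-LOF no longer passed it. In other zinc finger families the median for miR-9-LOF over Ctr was -0.03 in 23 Zbtb genes, -0.11 in 9 Zkscan or Zscan genes and -0.23 in 11 Zc3h genes. Of the Zc3h genes 2 of 11 fell in that comparison, against 6.69% of all genes. With TGFB1 + miR-9-LOF over miR-9-LOF 3 of 11 Zc3h and 2 of 23 Zbtb genes rose, against 7.13% of all genes.

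Transcript length went with the change after miR-9-LOF, in Zfp genes as over all genes. For miR-9-LOF over Ctr the median log2 change was 0.07 in 32 Zfp genes under 2500 nt, -0.13 in 69 between 2500 and 5000 nt and -0.22 in 37 of 5000 nt or more. Over all genes it was -0.09, -0.19 and -0.32 in the same classes. For TGFB1 + miR-9-LOF over TGFB1 the Zfp medians were 0.00, -0.05 and -0.09, and those over all genes -0.05, -0.09 and -0.12. Of the 37 long Zfp genes 2 fell with miR-9-LOF over Ctr, against 12.8% of all genes in that class. The median transcript was 3524.5 nt in Zfp genes and 2686 nt over all genes. The part of RNA length or library quality in these values was not tested.

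**Figure D5:**
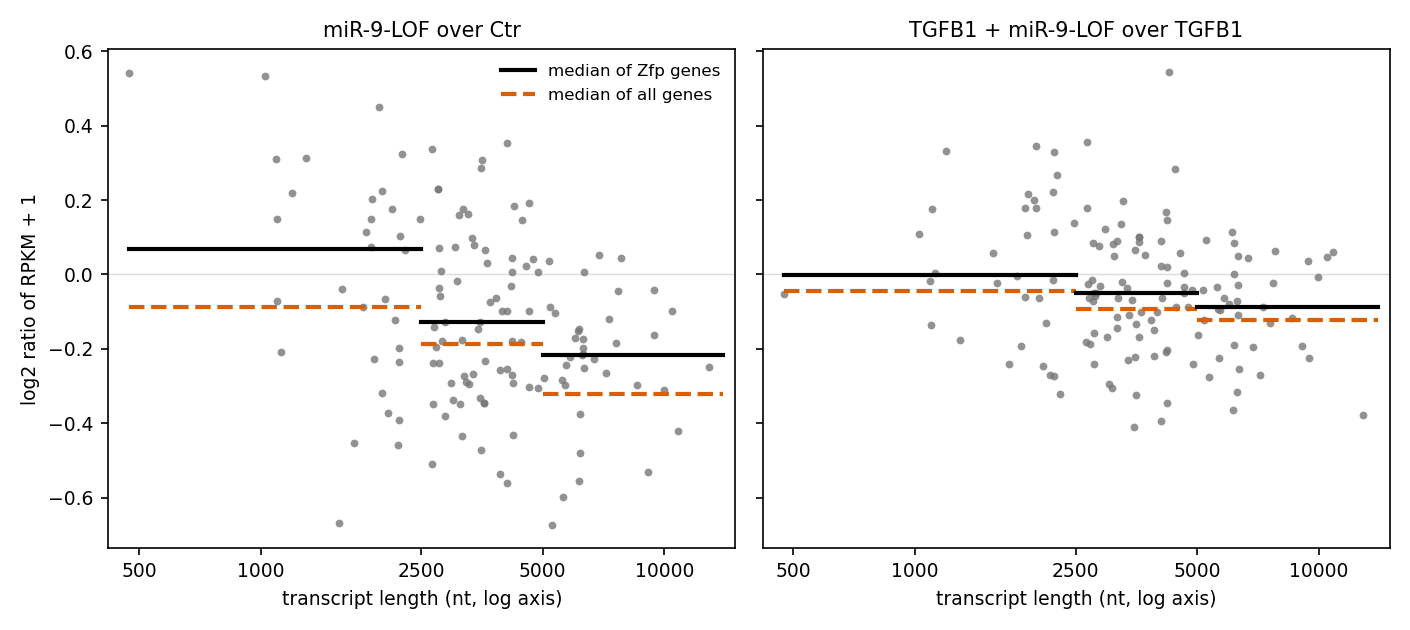
Log2 ratio of RPKM + 1 of 138 Zfp genes against transcript length (nt, log axis) for miR-9-LOF over Ctr (left) and TGFB1 + miR-9-LOF over TGFB1 (right), with medians of Zfp genes (black) and of all genes (orange, dashed) in 3 length classes. In the left panel the black medians step down with length, from 0.07 to -0.22, and lie above the orange ones in each class.

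Zfp genes with the miR-9-5p seed match were set beside those without it. For miR-9-LOF over Ctr the median log2 change was -0.11 in 22 Zfp genes with a 3′ UTR match and -0.15 in 115 without, and over all genes -0.22 with a match and -0.17 without. For TGFB1 + miR-9-LOF over TGFB1 these medians were -0.08 and -0.05 in Zfp genes and -0.10 and -0.08 over all genes. By matches in the coding sequence, the medians for miR-9-LOF over Ctr were -0.24 in 28 Zfp genes with a match and -0.12 in 109 without. Over all genes they were -0.27 and -0.16. The Zfp genes with a coding match had longer transcripts (median 5487 nt against 3275 nt). None of the 22 rose or fell in either comparison, while of all genes with a match 7.55% fell and 1.13% rose for miR-9-LOF over Ctr, and 1.60% fell and 1.79% rose for TGFB1 + miR-9-LOF over TGFB1, so that few calls were to be had among 22 genes. Of the genes whose sites are printed above, Zfp593, Zfp385c and Zfp365 were higher with the miR-9-5p oligonucleotide in both settings (Zfp593 by 0.45 and 0.20 log2, Zfp385c by 0.35 and 0.09, Zfp365 by 0.18 and 0.54). Zfp395 and Zfp106 were lower in both (log2 -0.29 and -0.20 for Zfp395, and -0.53 and -0.19 for Zfp106). All of them were short of the limit, and the exons of Zfp593 and Zfp385c overlap those of other coding genes. Zfp263 and Zfp131, whose sites are not printed, were lower without TGFB1 (log2 -0.29 each) and higher under it (0.14 and 0.12). The printed genes were picked partly for their changes, so their directions do not stand for the 22 genes.

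Because the study addresses G-quadruplexes, promoters were searched for 4 runs of 3 or more G with loops of 1 to 7 bases on either strand, within the 300 bases from 250 before to 50 after a start site in RefSeq on GRCm38.p6. The motif was found for 36 of 109 Zfp genes with a listed promoter (33.0%), against 31.5% of 7456 genes at 1 RPKM or more and 18.6% of all 32851 promoter windows. A gene was counted if any of its windows held the motif, so the share of windows is a different measure. Among the Zfp genes the motif was found in 2 of 31 KRAB genes and in 34 of 78 others. For miR-9-LOF over Ctr the median log2 change was -0.14 in Zfp genes with the motif and -0.15 in those without, and over all genes -0.20 and -0.16. The 250 bases before the start of Zfp281 and Zfp358 are shown, with the motif in capitals, since both carry it and differ in the change after miR-9-LOF. Zfp358 was picked for this contrast after its values were seen.
Zfp281, chr1:136624651-136624900, plus strand: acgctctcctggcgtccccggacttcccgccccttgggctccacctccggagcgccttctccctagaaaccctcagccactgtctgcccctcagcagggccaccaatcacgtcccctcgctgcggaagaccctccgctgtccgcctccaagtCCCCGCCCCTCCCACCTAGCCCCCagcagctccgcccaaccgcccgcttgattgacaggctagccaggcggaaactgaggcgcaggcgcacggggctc
Zfp358, chr8:3492888-3493137, plus strand: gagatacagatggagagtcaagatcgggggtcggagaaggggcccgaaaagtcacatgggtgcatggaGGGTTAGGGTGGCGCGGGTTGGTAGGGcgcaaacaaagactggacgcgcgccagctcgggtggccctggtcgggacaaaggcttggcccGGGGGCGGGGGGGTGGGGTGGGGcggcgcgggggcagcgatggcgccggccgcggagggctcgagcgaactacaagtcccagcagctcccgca

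In the genome, 31 of the Zfp genes (22.5%) lie on chromosome 7, against 7.28% of all genes at 1 RPKM or more. Within 250 kb of another expressed Zfp gene lay 51 genes in 18 groups, among them 23 of the 38 KRAB genes. The largest group, of 7 genes from Zfp553 to Zfp646, spans chromosome 7 from 127233061 to 127885996, and its log2 changes for miR-9-LOF over Ctr ran from -0.24 to 0.32. The 4 genes Zfp84, Zfp568, Zfp260 and Zfp146, on chromosome 7 from 29768552 to 30169775, were all higher with TGFB1 in both settings, by 0.19 to 0.44 log2 for TGFB1 over Ctr and by 0.29 to 0.57 for TGFB1 + miR-9-LOF over miR-9-LOF, short of the limit each. The 5 genes Zfp628, Zfp579, Zfp524, Zfp865 and Zfp580, on chromosome 7 from 4915181 to 5053723, ran from -0.44 to -0.20 for TGFB1 + miR-9-LOF over miR-9-LOF. These groups were picked after their values were seen. Zfp966 and Zfp967 on chromosome 2 had the same counts in all 4 libraries (138 reads in Ctr), so they share reads and are a single measurement under 2 symbols. Both symbols were nevertheless kept as separate genes in the counts and medians given here. In all, 17 Zfp genes have exons that overlap exons of another coding gene.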

How the data were processed

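Total RNA of 4 MLg cell libraries, 1 per group, was sequenced by the authors as 75-nt single-end reads. Reads were trimmed with Trimmomatic 0.36, aligned to mm10 with Bowtie2 and counted in RefSeq exons on both strands with HOMER (Bowtie2 and HOMER versions: not given in the sources used here). The deposited counts are whole reads per transcript, not normalised. The deposited RPKM values were computed by the authors with edgeR from counts and transcript length and carry an added 1, which was subtracted here to give plain RPKM. Each RPKM divides by a total that includes ribosomal RNA precursor reads. Columns of the authors' own fold changes and summed RPKM were not used.

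For each of 12767 symbols the transcript with the highest mean RPKM of 25388 was kept. Changes are log2 ratios of RPKM + 1 between 2 libraries, called at 0.58, with no test because no group has a replicate and nothing in the labels names separate cultures. Ratios carry exact 95% binomial intervals from the counts and totals. Their coverage was tested on data simulated with counting error alone, the error that these intervals assume. That test therefore says nothing on spread between cultures or on repeated reads of a molecule. The smallest library bounds precision. Percentages over all genes use the same limit.

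The members and lists were chosen with earlier results of these data known. Named genes are the 6 highest, the 4 lowest and 4 highest changes of each comparison among genes with 50 or more reads summed over its 2 libraries, genes past the limit in both comparisons that share no library, genes next to the level of 1 RPKM, and a list of known roles. Zfp genes picked outside this rule for their changes are marked. Also outside it, Zfp319 is named for its seed matches, Zfp444 for its SCAN box, and Zfp966 and Zfp967 for their shared counts. KRAB and SCAN boxes were searched with profiles in GENCODE M21 proteins, in place of the RefSeq proteins first planned. Each profile was built from stretches of GENCODE proteins that matched a written sequence pattern of the box. Direct matches to the pattern were counted as well. Promoters and miR-9-5p come from RefSeq on GRCm38.p6, the same assembly as mm10. Alternatives were other scalings (median centring, totals without 3 genes, edgeR TMM), no pseudocount, a limit of 1, other filters on level (3 RPKM, or none) and reads (100), and the longest transcript. Python 3.11.15, pandas 2.3.3, numpy 2.4.6, scipy 1.17.1, biopython 1.88, pyhmmer 0.12.3, matplotlib 3.10.9, R 4.3.3 and edgeR 4.0.16 were used.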

Additional observations from a re-analysis of the deposited data

How the results depend on the processing

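For miR-9-LOF over Ctr, where 3 Zfp genes fell and 0 rose, median centring gave 0 and 3, totals without Rn45s, Mir6236 and Lars2 (which also raise the number of Zfp genes from 138 to 160) gave 0 and 7, TMM gave 0 and 3, plain ratios gave 21 and 4, a limit of 1 gave 0 that fell, and a mean of 3 RPKM gave 1 that fell. For TGFB1 + miR-9-LOF over TGFB1, where 0 rose, centring, totals without the 3 genes and TMM each gave 1, and plain ratios gave 2. Over all genes 2.44%, 3.81%, 2.43% and 2.99% rose in the same order. For TGFB1 over Ctr, where 0 fell and 2 rose, totals without the 3 genes gave 1 that fell, plain ratios gave 3 and 7, and a limit of 1 and a mean of 3 RPKM each gave 1 that rose. Over all genes 3.76% fell with those totals, and 0.803% rose at a limit of 1. For TGFB1 + miR-9-LOF over miR-9-LOF, where 1 fell and 11 rose, centring gave 2 and 2, totals without the 3 genes gave 2 that fell, TMM gave 7 that rose, plain ratios gave 6 and 31, a limit of 1 gave 0 and 1, a minimum of 100 reads gave 0 that fell, and a mean of 3 RPKM gave 3 that rose. At a limit of 1, 0.380% of all genes fell for miR-9-LOF over Ctr. For TGFB1 + miR-9-LOF over miR-9-LOF, 0.264% of all genes fell and 0.739% rose at that limit. With totals without the 3 genes, 4.47% of all genes fell in that comparison. The mean of 3 RPKM left 50 Zfp genes. Of these 2% fell for miR-9-LOF over Ctr, against 8.07% of all genes at that level. For TGFB1 over Ctr 2% rose, against 2.89%, and for TGFB1 + miR-9-LOF over miR-9-LOF 6% rose, against 7.38%. The minimum of 100 reads left 128 Zfp genes for TGFB1 + miR-9-LOF over miR-9-LOF, where 2.23% of all genes fell. The cause of the shifts in these counts was not tested.

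No call of a single gene reversed. Of 17 such calls, centring kept 5, TMM 10, totals without the 3 genes 13, a limit of 1 kept 2 and the longest transcript 14. Zfp469 and Zfp984 stayed past the limit for TGFB1 over Ctr under every scaling. The Zfp median minus the all-gene median ranged from -0.02 to 0.12 for miR-9-LOF over Ctr and from -0.08 to 0.07 for TGFB1 + miR-9-LOF over miR-9-LOF. No paired analysis was possible because each group has 1 library and so no numbered replicates to block on. A model with a term for each treatment over the 4 libraries was not fitted. Zfp genes with few reads, such as Zfp672 with 19 to 42, set the depth limit.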
